A study of Mus musculus with 8 samples.

Results

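Plcd4, Ddias and Inka2 are 3 mouse genes that are not among the usual readouts of radiation injury in the gut. They were selected on their processed signals, as large rises in the 8Gy4h arrays (irradiated small intestine) over the 0Gy4h arrays (unirradiated), so that difference itself is described here and not tested. Their probes were found by gene name or by an older name of the same gene, Inka2 being listed on the array as Fam212b. This gave 5 probes for the 3 genes, out of 27469 probes and 21766 genes that were measured, and all 5 probes passed the filter on dim probes.

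Plcd4 encodes phospholipase C delta 4, an enzyme that splits the membrane lipid PIP2 into the messengers IP3, which releases calcium from stores, and diacylglycerol, which activates protein kinase C. In the mouse it is known for its part in the acrosome reaction of sperm. Ddias, also called noxin, encodes a DNA damage-induced apoptosis suppressor, a nuclear protein known to be induced by genotoxic stress. Inka2 encodes an inhibitor of PAK4, a kinase that acts on the actin cytoskeleton, and has been described in human cells as a target of the transcription factor p53. In the intestine, p53 is activated within hours of irradiation, mainly in the dividing cells of the crypts, and its target genes include inhibitors of the cell cycle and promoters of cell death.

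The tissue, labelled small intestine and in the design text jejunum, came from 8-week-old females of the strain BALB/cA Jcl. Each of 4 groups had 2 arrays, and all samples were taken 4 h after the time of irradiation. FGF1CPPC+8Gy4h mice had an intraperitoneal injection of FGF1/CPP-C, a chimeric protein of fibroblast growth factor 1 with the peptide called CPP-C, before 8 Gy of carbon ions, and the design text gives that pretreatment as 12 h. FGF1+8Gy4h mice had FGF1 and 8 Gy, 8Gy4h mice had saline and 8 Gy, and 0Gy4h mice had saline and 0 Gy. All groups therefore share the injection. No label ties an array to an animal, so every error here covers the spread between arrays, which may be technical. In whole tissue, a change in RNA per cell and a change in the number of cells of a type cannot be told apart.

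The 5 probes are 60 bases long and are shown because each value below rests on 1 of them. The sequences are those in the array files, and the coordinates are mm9 as those files give them.
Plcd4 A_55_P2090359: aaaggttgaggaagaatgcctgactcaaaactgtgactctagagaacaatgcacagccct
Plcd4 A_52_P327588: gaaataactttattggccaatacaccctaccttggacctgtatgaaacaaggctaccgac
Ddias A_51_P369252: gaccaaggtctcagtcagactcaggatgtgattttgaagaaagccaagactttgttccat
Inka2 A_52_P29953: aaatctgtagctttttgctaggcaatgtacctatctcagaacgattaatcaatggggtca
Inka2 A_51_P113178: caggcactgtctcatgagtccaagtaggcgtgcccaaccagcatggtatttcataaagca
The first Plcd4 probe lies at chr1:74612436-74612495 on the plus strand, and the files give the second no position. The Ddias probe lies at chr7:100006950-100007009 on the minus strand. The Inka2 probes lie on the plus strand at chr3:105521608-105521667 and chr3:105520821-105520880, their starts 787 bases apart. All 5 probes are assigned to transcripts of these genes. Whether a probe falls in a coding exon or an untranslated region was not analysed here. Their base composition was between 38.3% and 50% G and C, and no spot was saturated or marked as an outlier on any of the 8 arrays.

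RefSeq promoters of GRCm38.p6, each from 250 bases before to 50 bases after a transcript start, were found for all 3 genes, with 2 starts for Plcd4, 1 for Ddias and 2 for Inka2. They were searched for exact matches to the p53 half-site, whose pattern is the same on both strands. Of these 5 promoters, 1 held a match, the Inka2 promoter at chr3:105705208-105705507 on the plus strand, shown here with the match in capitals.
Inka2 promoter: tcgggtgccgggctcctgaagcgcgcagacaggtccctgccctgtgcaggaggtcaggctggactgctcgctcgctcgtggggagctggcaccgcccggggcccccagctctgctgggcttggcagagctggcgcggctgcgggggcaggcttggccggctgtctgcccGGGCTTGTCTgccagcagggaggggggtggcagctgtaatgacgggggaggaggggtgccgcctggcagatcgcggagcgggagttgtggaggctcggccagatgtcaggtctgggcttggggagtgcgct
The matching run, GGGCTTGTCT, begins 81 bases before the start. A half-site occurs in 8.36% of all 32851 promoters of this length (2745 promoters), and a match shows no binding. Counted by gene, it occurs in at least 1 promoter of 9.55% of 27025 genes, and of 11 of the 28 genes of the p53 target list below that are in the table (39.3%). A pair of half-sites at most 13 bases apart, searched in the same way, occurs in 24 promoters (0.073%) and in none of these 5.

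Signals below are processed signals, which are background-subtracted intensity units. Normalised levels are the log2 of that signal relative to the array's 75th percentile, with a floor of -6.95. The 75th percentile was between 1734.7 and 2165.2 intensity units, and 66.9% to 71.1% of the probes of an array were well above background. Replicate arrays correlated across genes with r between 0.982 (8Gy4h) and 0.994 (FGF1CPPC+8Gy4h), and replicate 1 of each group lay on one slide and replicate 2 on the other. The 9 markers of absorptive enterocytes had median normalised levels of 6.88 to 7.10 in FGF1CPPC+8Gy4h, the highest group. They were 6.60 to 6.67 in FGF1+8Gy4h, 6.23 to 6.84 in 8Gy4h and 6.33 to 6.74 in 0Gy4h. The brush border enzyme Sis was not well above background on both 0Gy4h arrays and on 8Gy4h replicate 1. The FGF1CPPC+8Gy4h medians were also highest for Paneth cell markers (0.89 to 0.91) and lowest for smooth muscle (4.19 to 4.27). For goblet cells (7.28 to 7.52) they overlapped the other groups. Markers of stomach antrum also appeared. The summed level of their 9 genes (on the linear scale, relative to the 75th percentile) was 0.668 to 0.913 in FGF1CPPC+8Gy4h, against 436 to 1020 in FGF1+8Gy4h, 434 to 1190 in 8Gy4h and 811 to 1150 in 0Gy4h. On the FGF1CPPC+8Gy4h arrays 6 of the 9 were well above background, Gast among them, against 9 of 9 on each other array. Those that were not were Tff1, Tff2 and Pgc on replicate 1 and Gkn2, Tff1 and Tff2 on replicate 2. The 9 pancreatic acinar markers had a summed level of 0.518 to 2.6 in FGF1CPPC+8Gy4h, 0.56 to 0.79 in FGF1+8Gy4h, 0.621 to 75.5 in 8Gy4h and 0.614 to 366 in 0Gy4h. The summed level of 4 mast cell markers was 0.599 to 0.879 in FGF1CPPC+8Gy4h, 0.394 to 0.692 in FGF1+8Gy4h and 0.536 to 1.07 in 8Gy4h, all below the 2.08 to 2.18 of 0Gy4h. That of 4 adipocyte markers was 0.0621 to 0.081 in FGF1CPPC+8Gy4h, 0.0662 to 0.111 in FGF1+8Gy4h, 0.785 to 1.47 in 8Gy4h and 0.204 to 0.356 in 0Gy4h. The part of these cell types in the results below was not tested. Leaving out the arrays highest in antrum markers cannot test it. The arrays left had antrum sums of 811 in 0Gy4h, 434 in 8Gy4h and 436 in FGF1+8Gy4h, still far above FGF1CPPC+8Gy4h. In every comparison of FGF1CPPC+8Gy4h with another group, a difference of treatment and a difference of tissue sampled cannot be told apart.

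Plcd4 was well above background in irradiated tissue, and on its brighter probe it was not in unirradiated tissue. On its brighter probe, A_55_P2090359, the signal was 121 and 140 in FGF1CPPC+8Gy4h, 105 and 126 in FGF1+8Gy4h, 121 and 147 in 8Gy4h, and 12.9 and 7.58 in 0Gy4h. All 6 irradiated arrays were well above background, and neither 0Gy4h array was. Of 21547 genes with a value on every array, 10.6% had all irradiated arrays above both 0Gy4h arrays, as Plcd4 had. The 0Gy4h signals stand beside scanner error estimates of 4.38 and 5.46 units, and both arrays were set to the floor. On this probe and these signals, the lower bound over 0Gy4h was therefore 7.65-fold in FGF1CPPC+8Gy4h, 6.33-fold in FGF1+8Gy4h and 7.31-fold in 8Gy4h. It does not hold for the second probe or for another background correction, which gave smaller differences (below). Each bound sets the 0Gy4h arrays at the lowest signal that was well above background on them, or at the floor where that was higher.

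The second Plcd4 probe, A_52_P327588, was dimmer and gave a smaller difference. Its signal was 52.4 and 45.2 in FGF1CPPC+8Gy4h, 46.1 and 52.3 in FGF1+8Gy4h, 45.3 and 41.1 in 8Gy4h, and 22.7 and 13.7 in 0Gy4h. The irradiated arrays lay above both 0Gy4h arrays, as in 10.6% of the 21547 genes above. Of the 0Gy4h arrays replicate 1 alone was well above background, while replicate 2 was set to the floor. With that array at the floor, the normalised level on this probe was 2.51-fold higher in FGF1CPPC+8Gy4h, 2.38-fold higher in FGF1+8Gy4h and 2.08-fold higher in 8Gy4h than in 0Gy4h. On these signals both probes of Plcd4 placed the irradiated groups above 0Gy4h, and neither gives an exact fold. With another background correction (normexp, below) the second probe was at -4.55 and -4.38 in 0Gy4h. It was at -4.23 and -4.39 in 8Gy4h, so these groups overlapped. In FGF1+8Gy4h it was at -4.28 and -4.12, and in FGF1CPPC+8Gy4h at -4.06 and -4.21.

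Ddias was detected in every array. Its signal was 509 and 626 in FGF1CPPC+8Gy4h, 749 and 571 in FGF1+8Gy4h, 585 and 1050 in 8Gy4h, and 102 and 105 in 0Gy4h. The 0Gy4h arrays were close together, the lowest irradiated array was far above them, and 8Gy4h replicate 2 was the highest of all. On the normalised scale Ddias averaged -1.80 ± 0.17 in FGF1CPPC+8Gy4h, -1.67 ± 0.23 in FGF1+8Gy4h, -1.42 ± 0.52 in 8Gy4h and -4.12 ± 0.11 in 0Gy4h (SD, n = 2 each). The lowest irradiated array was 2.13 log2 units above the highest 0Gy4h array. All irradiated arrays lay above both 0Gy4h arrays in 10.6% of 21547 genes.

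Inka2 showed the same separation at both of its probes. On A_52_P29953 the signal was 238 and 276 in FGF1CPPC+8Gy4h, 348 and 279 in FGF1+8Gy4h, 238 and 490 in 8Gy4h, and 54.5 and 40.4 in 0Gy4h. On A_51_P113178 it was 172 and 193 in FGF1CPPC+8Gy4h, 247 and 171 in FGF1+8Gy4h, 177 and 320 in 8Gy4h, and 49.8 and 32.8 in 0Gy4h. As for Ddias, 8Gy4h replicate 2 was the highest array on either probe. The irradiated arrays lay above both 0Gy4h arrays, as in 10.6% of 21547 genes. For genes picked as large rises in 8Gy4h, part of this separation was set by the choice. The fold over 0Gy4h was 5.03, 5.75 and 6.27 on the first probe and 4.14, 4.39 and 5.07 on the second, in FGF1CPPC+8Gy4h, FGF1+8Gy4h and 8Gy4h in that order.

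**Figure D1:**
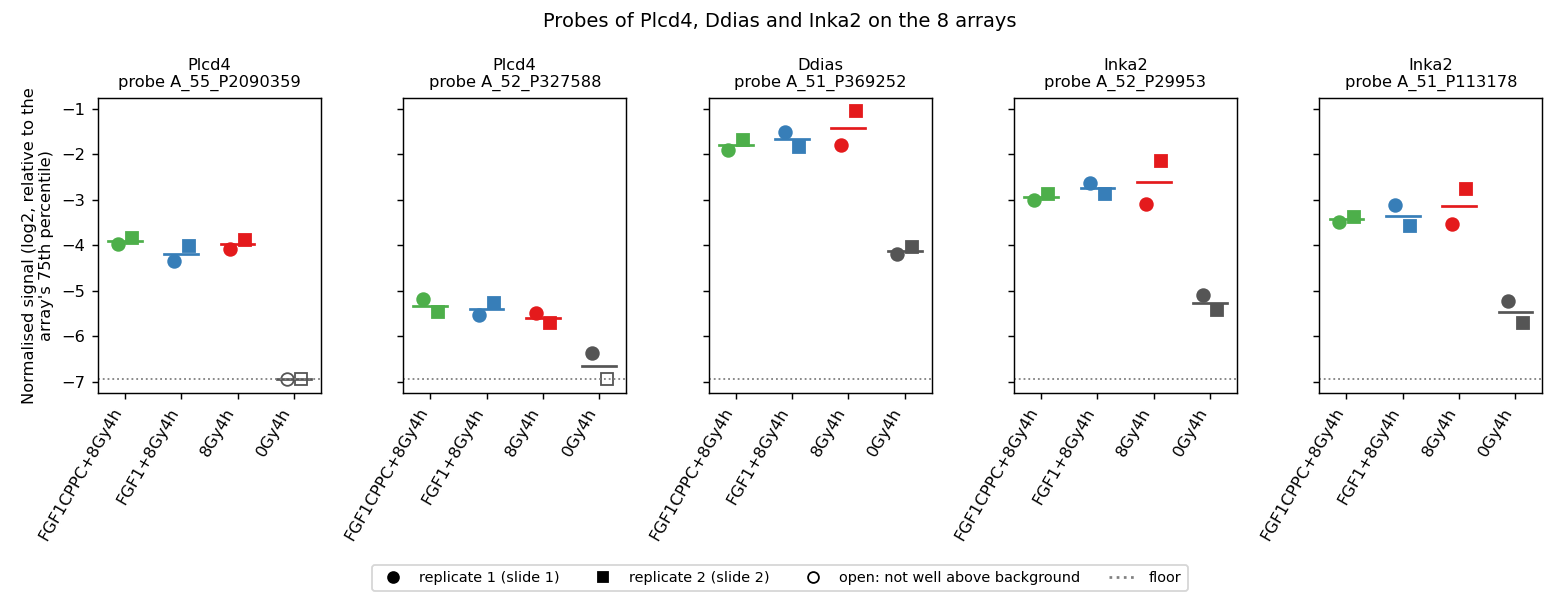
Normalised log2 signal of the 5 probes of Plcd4, Ddias and Inka2 (vertical axis, relative to each array's 75th percentile) in the 4 groups. Circles are replicate 1 on the first slide, squares are replicate 2 on the second, open symbols are not well above background, bars are means of 2 arrays and the dotted line is the floor of -6.95. The 6 irradiated arrays lie above both 0Gy4h arrays on every probe, as in 10.6% of 21547 genes, and the 2 arrays of 8Gy4h lie 0.74 apart for Ddias.

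In 8Gy4h against 0Gy4h, the comparison that chose the genes, the difference in normalised log2 level was 2.97 for Plcd4 (with 0Gy4h at the floor), 2.70 for Ddias and 2.65 for Inka2. The difference for Ddias was 2.41 on the first slide and 2.99 on the second, and that for Inka2 2.02 and 3.28. The wider gap for Inka2 came with the high 8Gy4h replicate 2. That array also had the highest antrum marker sum, 1190. Without 8Gy4h replicate 2 the difference was 2.33 for Ddias and 2.18 for Inka2.

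The arms with a growth factor had no part in choosing the genes, although the 0Gy4h arrays they are set against did. The p and intervals of the 3 genes against 0Gy4h take no account of that choice. They are therefore no independent support for a rise in either arm. In FGF1CPPC+8Gy4h against 0Gy4h, Ddias and Inka2 were higher, and Plcd4 has only a bound. By limma, at a Benjamini-Hochberg adjusted p under 0.05, 270 of the 21744 genes were higher (1.24%) and 168 lower (0.773%), which is 2.01% in either direction. On the processed signals of its brighter probe, Plcd4 was at least 7.65-fold higher (limma adjusted p = 0.00254). Its probe passed the filter on dim probes only through the irradiated groups, and the fit takes the 0Gy4h arrays at the floor to have no spread, so this p is no support for a rise. With normexp background correction, which adds an offset of 50 in place of a floor, the log2 difference of Plcd4 was 1.15. Ddias rose by 2.33 ± 0.26 (adjusted p = 0.0231), which is 5.02-fold with a 95% interval of 3.24 to 7.80. Inka2 rose by 2.33 ± 0.31 (adjusted p = 0.0307), which is 5.03-fold with an interval of 2.97 to 8.52. With normexp the difference for Inka2 was 1.35, and it did not pass (limma adjusted p = 0.0559).

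In FGF1+8Gy4h against 0Gy4h Ddias and Inka2 rose as well, where 0.612% of 21744 genes were higher and 0.285% lower (133 and 62 genes, 0.897% in all, by the same limma test). On the processed signals of its brighter probe, Plcd4 was at least 6.33-fold higher (limma adjusted p = 0.00533). That p again rests on floored 0Gy4h values and on a probe kept through the irradiated groups. With normexp the log2 difference of Plcd4 was 1.01. Ddias rose 5.47-fold, with a 95% interval of 3.52 to 8.49 (log2 2.45 ± 0.26; adjusted p = 0.0274 in limma). Inka2 rose 5.75-fold, with an interval of 3.40 to 9.74 (log2 2.52 ± 0.31; adjusted p = 0.0368 in limma), and with normexp it was 1.49 higher and did not pass (limma adjusted p = 0.0547). Within the first and the second slide the FGF1+8Gy4h minus 0Gy4h difference was 2.69 and 2.21 for Ddias, 2.49 and 2.56 for Inka2, and 2.60 and 2.94 for Plcd4. For FGF1CPPC+8Gy4h minus 0Gy4h the slides gave 2.29 and 2.37 for Ddias, 2.09 and 2.57 for Inka2, and 2.97 and 3.11 for Plcd4. Both comparisons use the same 0Gy4h arrays and so are not separate evidence.

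These calls rest on few arrays. With the slide as a block, Inka2 no longer passed in limma against 0Gy4h (adjusted p = 0.0563 in FGF1CPPC+8Gy4h and 0.0674 in FGF1+8Gy4h), and with either 0Gy4h array left out neither Ddias nor Inka2 passed in either arm. On the dimmer probe Plcd4 was 1.33 higher in FGF1CPPC+8Gy4h (limma adjusted p = 0.0514) and 1.25 higher in FGF1+8Gy4h (0.0797).

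**Figure D2:**
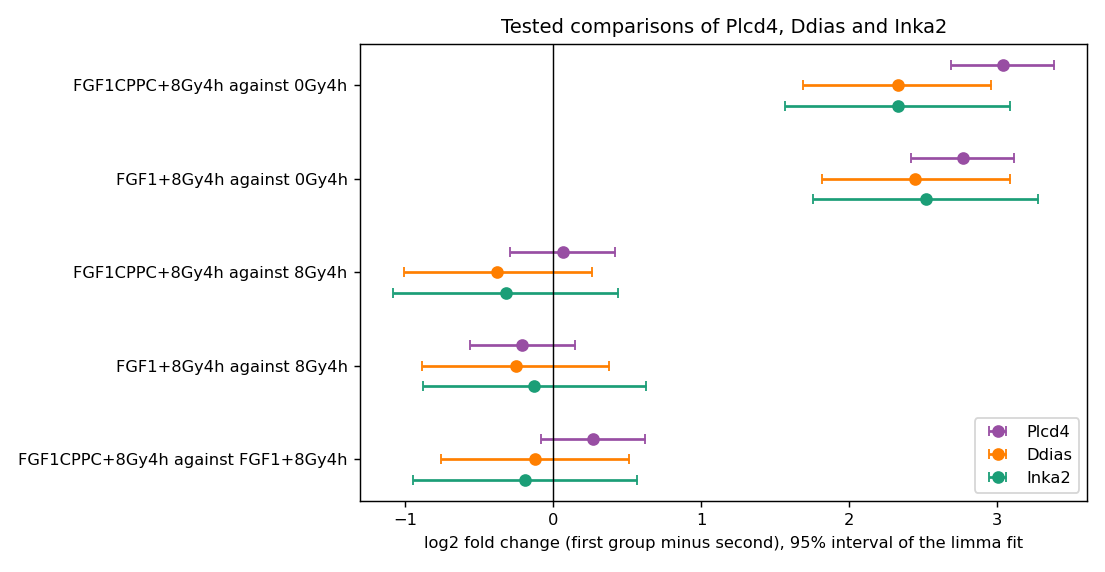
Log2 difference between groups, first named minus second, for Plcd4, Ddias and Inka2 in the 5 comparisons that did not choose the genes, with 95% intervals of the limma fit. The 6 intervals against 0Gy4h lie above 0, and the 9 intervals between irradiated groups all include 0. The 0Gy4h arrays helped to choose the genes, which the intervals do not take into account. For Plcd4 those arrays are fixed at the floor with no spread, which enters all of its intervals.

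Among the irradiated groups, none of the 3 genes passed the test in any of the 3 comparisons. The errors and intervals of Plcd4 in them pool the spread of all 4 groups. The floored 0Gy4h arrays add none, so these intervals may be too narrow. In FGF1CPPC+8Gy4h against 8Gy4h, where 0.0092% of 21743 genes passed (2 genes, both lower), the log2 difference was 0.07 ± 0.14 for Plcd4 (95% interval -0.29 to 0.42). For Ddias it was -0.38 ± 0.26 (interval -1.01 to 0.26), and for Inka2 -0.32 ± 0.31 (interval -1.08 to 0.44). The lower ends of these intervals are 0.497-fold for Ddias and 0.474-fold for Inka2, so the data do not show that the groups are alike. In FGF1+8Gy4h against 8Gy4h, where 0% of 21744 genes passed (382 genes had an unadjusted p under 0.05 in limma, and 2 genes passed when the probes of a gene were averaged), the difference was -0.21 ± 0.14 for Plcd4 (interval -0.56 to 0.15). It was -0.25 ± 0.26 for Ddias (interval -0.89 to 0.38) and -0.13 ± 0.31 for Inka2 (interval -0.88 to 0.63). Both of these comparisons use the 8Gy4h arrays that chose the genes. Leaving out 8Gy4h replicate 2 turned the sign for Inka2 in both, to 0.16 and 0.35, and that for Ddias against FGF1+8Gy4h, to 0.12.

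FGF1CPPC+8Gy4h against FGF1+8Gy4h used no array that chose the genes. Of 21757 genes 0.00919% passed there (2 genes, both lower). Plcd4 was 0.27 ± 0.14 higher in FGF1CPPC+8Gy4h on its brighter probe (95% interval -0.08 to 0.62; limma adjusted p = 0.666), and the arrays of the 2 groups did not overlap, as in 24.6% of genes with FGF1CPPC+8Gy4h higher. On the dimmer Plcd4 probe the difference was 0.08 and the groups overlapped. Ddias differed by -0.12 ± 0.26 (interval -0.76 to 0.51; limma adjusted p = 0.94) and Inka2 by -0.19 ± 0.31 (interval -0.95 to 0.57; limma adjusted p = 0.914). The antrum markers separate the same 2 groups, so a difference of pretreatment and a difference of tissue sampled cannot be told apart here.

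The levels in this paragraph are those of the brightest probe of each gene, unless the dimmer one is named. By mean level the groups ran FGF1CPPC+8Gy4h, 8Gy4h, FGF1+8Gy4h and 0Gy4h from high to low for Plcd4. For Ddias and Inka2 the order was 8Gy4h, FGF1+8Gy4h, FGF1CPPC+8Gy4h and 0Gy4h. Arrays of neighbouring groups among the first 3 places overlapped for each gene. For Plcd4 those of FGF1CPPC+8Gy4h and FGF1+8Gy4h did not, as in 24.6% of genes with FGF1CPPC+8Gy4h higher. The dimmer Plcd4 probe gave another order, FGF1CPPC+8Gy4h (-5.33), FGF1+8Gy4h (-5.41), 8Gy4h (-5.6) and 0Gy4h (-6.66). There FGF1CPPC+8Gy4h and FGF1+8Gy4h overlapped. The lower FGF1CPPC+8Gy4h array (-5.47) lay next to the higher 8Gy4h array (-5.48), which is no clear separation. 0Gy4h was last for each gene. Over the 6 irradiated arrays the normalised level ran from -4.35 to -3.84 for Plcd4 (median -4.00). It ran from -1.91 to -1.05 for Ddias (median -1.73) and from -3.09 to -2.14 for Inka2 (median -2.86). Across those 6 arrays Ddias and Inka2 went up and down together (Pearson r = 0.96). On its brighter probe Plcd4 followed neither (r = 0.10 with Ddias and 0.08 with Inka2). The dimmer Plcd4 probe was lowest of the 6 in 8Gy4h replicate 2 (-5.72), where Ddias was highest (-1.05). It was highest in FGF1CPPC+8Gy4h replicate 1 (-5.19), where Ddias was lowest (-1.91). The brighter probe had its lowest and highest values on other arrays. No correlation was computed for the dimmer probe. The correlations given describe 6 arrays that share slides and tissue makeup, and that of Ddias with Inka2 leans on 8Gy4h replicate 2.

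The genes with the profile most like each of the 3 were taken by Pearson correlation over the 8 arrays. Each gene stood by its brightest probe, which for Plcd4 is at the floor in 0Gy4h, so its list does not cover the dimmer probe. All points share the split between irradiated and unirradiated arrays, so high values are common, and the correlation over the 6 irradiated arrays is given beside them. For Plcd4 these were Zfp365 (r = 0.996 over 8 arrays, 0.842 over 6), the stress cytokine Gdf15 (0.996 and 0.72), Thyn1 (0.996 and 0.807), the spindle-associated Psrc1 (0.995 and 0.633) and the ETS transcription factor Etv4 (0.995 and 0.909). The normalised level of Psrc1 was -2.28 to -1.80 in the irradiated arrays and -5.11 to -4.95 in the 0Gy4h arrays. That of Gdf15 was 1.68 to 2.60 in the irradiated arrays and -3.66 to -3.41 in the 0Gy4h arrays.

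For Ddias the likest were Sesn2 (r = 0.997 over 8 arrays, 0.957 over 6), a stress-induced inhibitor of mTORC1 signalling, Rnf169 (0.993 and 0.911), Klhl42 (0.992 and 0.848), A930007A09Rik (0.992 and 0.849) and Ptpdc1 (0.992 and 0.875). For Inka2 they were Rnf169 (0.998 and 0.984), the RNA-binding protein gene Zmat3 (0.997 and 0.959), Fam216a (0.996 and 0.949), Dcaf4 (0.995 and 0.95) and Dennd2c (0.994 and 0.955). Rnf169, a ubiquitin ligase that binds at DNA double-strand breaks, was thus on both lists. Its normalised level was 1.13 to 1.61 in the irradiated arrays and 0.05 to 0.12 in the 0Gy4h arrays, and it too was highest in 8Gy4h replicate 2. Within the irradiated arrays the likest genes of Ddias and Inka2 had correlations of 0.848 to 0.984, and those of Plcd4 of 0.633 to 0.909.

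**Figure D3:**
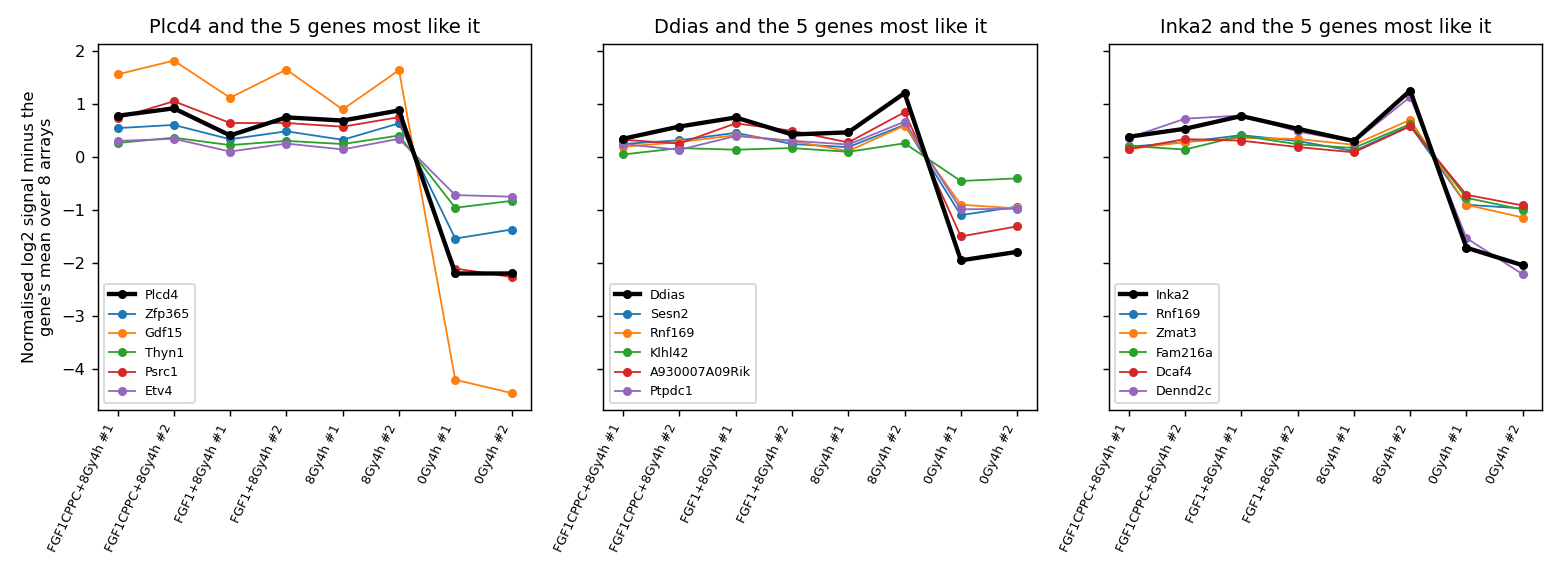
Normalised log2 signal of each gene minus its mean over 8 arrays (vertical axis), array by array, for Plcd4, Ddias and Inka2 (black) and the 5 genes with the highest Pearson correlation with each. All profiles drop in the 2 arrays of 0Gy4h, and Ddias, Inka2 and the genes like them peak in 8Gy4h replicate 2.

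A list of 37 established p53 targets, which leaves out Plcd4, Ddias and Inka2, had 35 measured genes, and its called members were all higher in irradiated tissue. In FGF1CPPC+8Gy4h against 0Gy4h, 18 of the 35 rose and none fell by limma, with a median log2 difference of 1.02, against -0.02 over all genes. In FGF1+8Gy4h against 0Gy4h, 17 rose and none fell (median 1.01, against -0.05 over all genes). In 8Gy4h against 0Gy4h, where 0.313% of 21734 genes were higher and 0.0966% lower by the same test (0.409% in all), 15 rose and none fell (median 1.10, against -0.05). The 4 that rose most in FGF1CPPC+8Gy4h were Gdf15 (log2 6.01 ± 0.30, SE), Phlda3 (3.75 ± 0.22), which restrains AKT signalling, Psrc1 (3.07 ± 0.14) and the polo-like kinase gene Plk2 (2.41 ± 0.29), with limma adjusted p of 0.00273, 0.00537, 0.00254 and 0.0245. Zfp365, Gdf15, Psrc1, Sesn2 and Zmat3, likest genes above, are also on this list. The likest genes were picked over arrays that share the split between irradiated and unirradiated tissue, which favours any gene that rose. The share of all such genes on the list was not counted, and control of the 3 genes by p53 was not tested. Trp53 itself did not pass (-0.01 ± 0.17 in FGF1CPPC+8Gy4h and -0.17 ± 0.17 in FGF1+8Gy4h, limma adjusted p of 0.97 and 0.676). Between irradiated groups no listed gene passed, and the medians were 0.02 in FGF1CPPC+8Gy4h against 8Gy4h, 0.00 in FGF1+8Gy4h against 8Gy4h and -0.02 in FGF1CPPC+8Gy4h against FGF1+8Gy4h. With either 0Gy4h array left out, 2 to 4 of the 35 rose in FGF1CPPC+8Gy4h and none in FGF1+8Gy4h or 8Gy4h. Without the 3 arrays highest in antrum markers (0Gy4h replicate 1, 8Gy4h replicate 2 and FGF1+8Gy4h replicate 1) no gene of the list passed against 0Gy4h, with medians of 0.94 in FGF1CPPC+8Gy4h, 1.13 in FGF1+8Gy4h and 0.84 in 8Gy4h.

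Apart from Plcd4, whose own p is no support for a rise, no phospholipase C rose by the test. Of 13 measured among 14 listed genes, none rose in any comparison under any processing alternative, and 1 fell, Plcb1 in FGF1CPPC+8Gy4h against 0Gy4h (-0.67 ± 0.10; limma adjusted p = 0.0417), and with the slide as a block Plcb1 did not pass. The list's median was -0.31 in FGF1CPPC+8Gy4h and -0.27 in FGF1+8Gy4h, each against 0Gy4h. The isoform Plcd1, of the same delta class, was at -0.31 ± 0.12 in FGF1CPPC+8Gy4h and -0.34 ± 0.12 in FGF1+8Gy4h (limma adjusted p of 0.197 and 0.227). Plcd3 was at 0.08 ± 0.34 and 0.46 ± 0.34 in the same arms (0.918 and 0.554). Downstream of the enzyme, 19 of 20 genes of phosphoinositide turnover and calcium release were measured, and none passed in any comparison (medians of 0.19 in FGF1CPPC+8Gy4h and 0.04 in FGF1+8Gy4h, each against 0Gy4h). Those with the smallest p were the IP3 receptor gene Itpr2 (-0.41 ± 0.10; limma adjusted p = 0.0952) and the diacylglycerol kinase gene Dgkq (0.53 ± 0.17; 0.155), both in FGF1CPPC+8Gy4h against 0Gy4h.

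Genes around the target of Inka2 did not pass either. Of 17 PAK kinases and actin regulators 15 were measured, and none passed in any comparison (medians of 0.07 in FGF1CPPC+8Gy4h and 0.05 in FGF1+8Gy4h, each against 0Gy4h). Pak4, the kinase that Inka2 inhibits, differed by -0.06 ± 0.09 in FGF1CPPC+8Gy4h and by -0.55 ± 0.09 in FGF1+8Gy4h (limma adjusted p of 0.732 and 0.0723). Limk1, a kinase downstream of PAK, was at -0.45 ± 0.10 in FGF1CPPC+8Gy4h (limma adjusted p = 0.0768), and Pak2 at 0.37 ± 0.11 (0.135). Inka1, the paralog of Inka2, was not above the filter on dim probes and has no value in the fit.

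**Figure D4:**
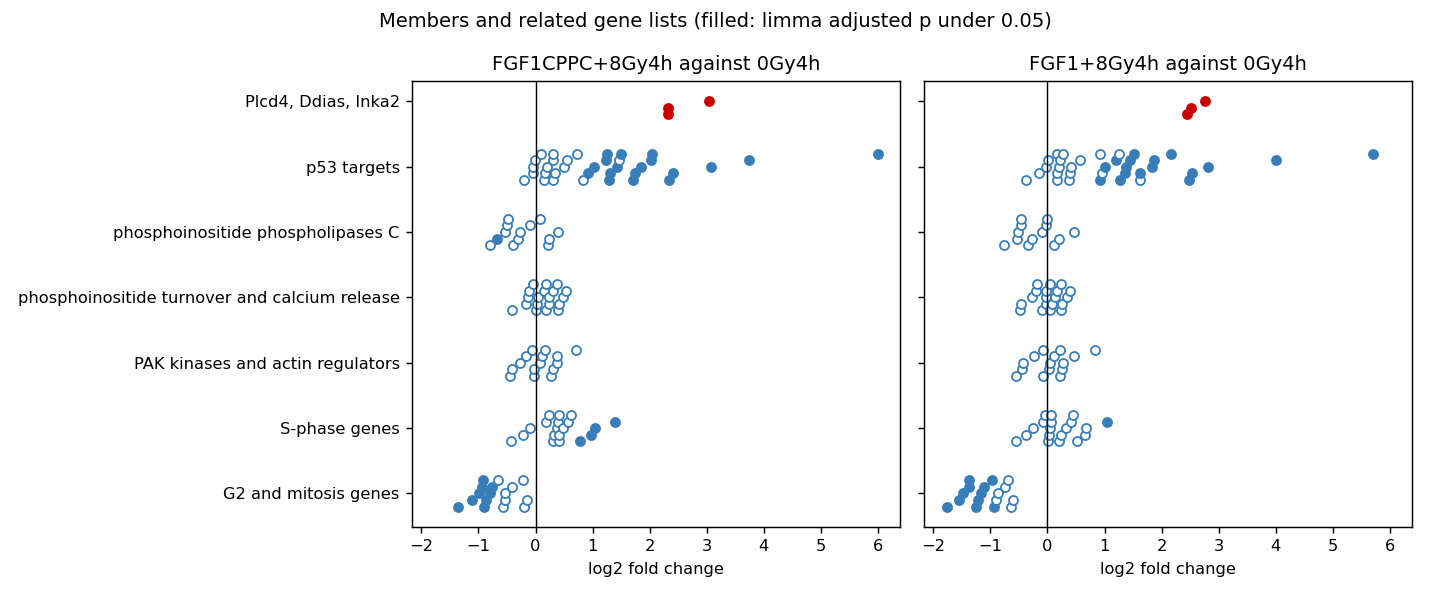
Log2 fold change against 0Gy4h (horizontal axis) of Plcd4, Ddias and Inka2 (red) and of the measured genes of 6 lists (blue), 1 point a gene, filled where the limma adjusted p is under 0.05. The 3 genes were chosen for large rises over the same 0Gy4h arrays, so their place beside the lists is not a result, and that of Plcd4 rests on the floor. The called p53 targets are all higher, and no PAK kinase or actin regulator is filled.

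Ddias mRNA is known to follow the cell cycle, so genes of its phases are given beside it. Of 19 measured S-phase genes, 4 rose in FGF1CPPC+8Gy4h against 0Gy4h by limma, where 1.24% of all genes rose. The 4 were Rrm2 (1.39 ± 0.14; adjusted p = 0.0215), Cdt1 (1.04 ± 0.11; 0.0218), Cdc6 (0.97 ± 0.13; 0.0328) and Ccne1 (0.78 ± 0.13; 0.0484), which serve nucleotide supply, origin licensing and entry into S phase. The list's median was 0.41 in that comparison, against -0.02 over all genes. In FGF1+8Gy4h against 0Gy4h, where 0.612% of all genes rose, 1 of the 19 did, Rrm2 (1.04 ± 0.14; limma adjusted p = 0.0411). The median there was 0.07, and in 8Gy4h against 0Gy4h none rose (median 0.21), against -0.05 over all genes in both. Of 17 measured genes of G2 and mitosis, 9 fell in FGF1CPPC+8Gy4h, 11 in FGF1+8Gy4h and 8 in 8Gy4h by limma, and none rose (medians of -0.77, -1.12 and -0.92). Over all genes 0.773%, 0.285% and 0.0966% fell in the same order, with medians of -0.02, -0.05 and -0.05. Among those that fell in FGF1CPPC+8Gy4h were Ccnb2 (-1.36 ± 0.20), Aspm (-1.11 ± 0.15), Bub1b (-0.99 ± 0.14) and Ccnb1 (-0.93 ± 0.13), with limma adjusted p of 0.0375, 0.0297, 0.0363 and 0.034. With the slide as a block 5, 9 and 1 of the 17 fell, 3 of the 19 S-phase genes rose in FGF1CPPC+8Gy4h and Rrm2 did not pass in FGF1+8Gy4h. With either 0Gy4h array left out none of these genes passed.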

How the data were processed

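Total RNA of mouse small intestine was hybridised to 1-colour Agilent arrays, 2 in each of 4 groups. Trizol and RNeasy extraction and Cy3 labelling (Low Input Quick Amp kit) are per the labels' protocols, and the use of Agilent Feature Extraction 9.5.3.1 is per the submitters' processing notes. Per the file headers, the deposited processed signal is a linear intensity after background subtraction and detrending inside each array. It was not scaled across arrays. In the series matrix the authors deposited identical intensity values (ratio 1), empty at dim spots. No source used here says how the authors scaled arrays for their own comparisons.

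Each deposited intensity was divided by its array's 75th percentile and taken to log2, with a floor of -6.95, the median over arrays of the lowest signal well above background. Control spots (1377 an array) and outlier spots were left out. The 43020 other spots made 39429 probes, of which 28330 got their gene from an accession in RefSeq (GRCm38.p6), 2204 from a symbol and 174 from a synonym, while 8721 kept the array's name. A probe was kept where both arrays of some group were well above background (27469 probes), and the brightest stood for a gene (21766 genes, 4673 with several probes). Limma 3.58.1 in R 4.3.3 (with the package data.table, version 1.17.8) fitted 4 group means to all 8 arrays, leaving 4 residual degrees of freedom, with a threshold of 0.05 on the adjusted p. It was also run on simulated data, built from the means and spreads of the finished fit. The number of arrays limits the precision, and an exact permutation test of 2 against 2 arrays cannot go below p = 0.333. Plots were made in Python 3.11.15 with matplotlib 3.10.9.

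The 3 genes, the gene lists and the alternatives were chosen with earlier results of these data known. Besides the 3 genes, the text names Trp53, Inka1, Pak4, Plcd1 and Plcd3, the 5 genes with a RefSeq symbol most correlated with each of the 3 over the 8 arrays, and for each list up to 4 genes that passed in FGF1CPPC+8Gy4h against 0Gy4h, largest difference first, or the 2 of smallest p. The alternatives changed the background correction (normexp), the normalisation (quantile), the source of values (series matrix), the filter on dim probes, the choice of probe (averaging them), the samples fitted (only the groups compared, or each array left out in turn), the design (the replicate number, which is the slide, as a block) and the moderation (trend and robust). Leaving out the 3 arrays highest in antrum markers, and using the dimmer probe, were added after the data had been seen.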

Additional observations from a re-analysis of the deposited data

How the results depend on the processing

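Values are log2 differences, with limma adjusted p in brackets. With normexp background correction the 8Gy4h minus 0Gy4h difference was 1.12 for Plcd4, 2.14 for Ddias and 1.58 for Inka2. With a gene's probes averaged it was 2.02 for Plcd4, with the dimmer probe 1.06 for Plcd4, and without the 3 arrays highest in antrum markers 2.25 for Ddias. With 1 array left out at a time it ran from 2.33 to 3.07 for Ddias and from 2.18 to 3.12 for Inka2. Plcd4 has no value against 0Gy4h from the series matrix, which is empty there, and none in any comparison from probes well above background on all arrays, a filter that neither of its probes passed.

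Against 0Gy4h every alternative run kept all 3 genes higher. Plcd4 passed but was smaller with normexp (1.15 in FGF1CPPC+8Gy4h and 1.01 in FGF1+8Gy4h) and with its probes averaged (2.18 and 2.01), against 3.04 and 2.77 with 0Gy4h at the floor. The threshold was missed in these settings. In FGF1CPPC+8Gy4h these were normexp for Inka2 (1.35, 0.0559), the series matrix for Inka2 (2.27, 0.0505), and no filter on dim probes for Ddias (2.33, 0.0599) and Inka2 (2.33, 0.0755). The fit of only the 2 groups compared gave 2.33 (0.0544) for Ddias and 2.33 (0.0585) for Inka2, the dimmer probe 1.33 (0.0514) for Plcd4, and leaving out the 3 arrays highest in antrum markers 3.04 (0.201) for Plcd4, 2.25 (0.229) for Ddias and 2.49 (0.22) for Inka2. In FGF1+8Gy4h they were normexp for Inka2 (1.49, 0.0547), the series matrix for Inka2 (2.50, 0.0519), and no filter for Ddias (2.45, 0.0699) and Inka2 (2.52, 0.0834). The fit of only the 2 groups gave 2.77 (0.0739) for Plcd4, 2.45 (0.0793) for Ddias and 2.52 (0.0793) for Inka2, the dimmer probe 1.25 (0.0797) for Plcd4, and leaving out the 3 arrays 2.94 (0.387), 2.21 (0.387) and 2.56 (0.387) for Plcd4, Ddias and Inka2. That fit and those without arrays hold fewer samples. With 1 array left out, the ranges in FGF1CPPC+8Gy4h were 2.21 to 2.45 for Ddias (0.0191 to 0.143) and 2.17 to 2.49 for Inka2 (0.0191 to 0.168), and in FGF1+8Gy4h 2.60 to 2.94 for Plcd4 (0.0145 to 0.0762), 2.29 to 2.61 for Ddias (0.0214 to 0.168) and 2.36 to 2.68 for Inka2 (0.0214 to 0.211). Ddias and Inka2 passed in both arms without either 8Gy4h array and missed without any other array. Plcd4 was 2.97 to 3.11 higher in FGF1CPPC+8Gy4h with 1 array left out, and in FGF1+8Gy4h it missed without any array of the 2 groups compared. Each of these runs takes 0Gy4h at the floor and a probe kept through the irradiated groups. Passing in them is therefore no support for a rise of Plcd4.

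The replicate number, which is the slide, was also fitted as a block. Same-numbered arrays deviated from their group means with r between -0.52 and 0.54, so the numbers were not taken as pairing the samples. The block gave 2.33 (0.0563) and 2.52 (0.0674) for Inka2 in FGF1CPPC+8Gy4h and FGF1+8Gy4h against 0Gy4h, and it changed no other call of the 3 genes.

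Between irradiated groups no alternative brought any of the 3 genes past the threshold. Signs turned in FGF1CPPC+8Gy4h against 8Gy4h for Plcd4 with the series matrix (-0.03) and with 1 array left out (-0.03 to 0.16), and for Inka2 without the 3 arrays (0.16) and with 1 left out (-0.79 to 0.16). They turned in FGF1+8Gy4h against 8Gy4h for Plcd4 without the 3 arrays (0.05) and on the dimmer probe (0.19), for Inka2 without the 3 arrays (0.23) and with 1 left out (-0.60 to 0.35), and for Ddias with 1 left out (-0.62 to 0.12). In FGF1CPPC+8Gy4h against FGF1+8Gy4h they turned for Ddias without the 3 arrays (0.04) and with 1 left out (-0.28 to 0.04).

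The number of genes past the threshold was less stable. It was 438 in FGF1CPPC+8Gy4h against 0Gy4h (180 with the block, 10 in the fit of 2 groups, 121 with the series matrix, 713 with trend and robust moderation), 195 in FGF1+8Gy4h against 0Gy4h (81, 5, 69 and 374 in the same settings) and 89 in 8Gy4h against 0Gy4h (37, 0, 34 and 147). With 1 array left out these ran from 11 to 848, 0 to 172 and 0 to 43, and without the 3 arrays all were 0. Over all alternatives the other 3 comparisons gave 0 to 9 in FGF1CPPC+8Gy4h against 8Gy4h, 0 to 2 in FGF1+8Gy4h against 8Gy4h and 0 to 14 in FGF1CPPC+8Gy4h against FGF1+8Gy4h.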
